A study of Arabidopsis thaliana with 3 samples.

Results

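Succinate dehydrogenase, also called complex II, was followed through the genes of its subunits in rosette leaves of Arabidopsis thaliana. The 10 genes considered were chosen by locus and by a RefSeq symbol that begins with SDH and a digit, and no value entered that rule. The family was nevertheless proposed with the differences between the transgenic lines and wild type in view, so those differences are given for its members as a description, with no test. Of the 10 genes, 6 were paired with a feature of the array, with 1 feature each, out of 28785 features in all. These were SDH1-1 (AT5G66760), SDH1-2 (AT2G18450), SDH2-1 (AT3G27380), SDH2-2 (AT5G40650), SDH2-3 (AT5G65165) and SDH3-1 (AT5G09600). No feature was paired with SDH4 (AT2G46505), SDH5 (AT1G47420), SDH6 (AT1G08480) or SDH7 (AT3G47833) in the tables used here, so the second anchor and the plant-specific subunits were not analysed here.

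The arrays held total RNA of plants 2 weeks old in the Col-0 ecotype. Line 41 and line 45, numbered so in the labels, express AtMYB23SRDX from the 35S promoter, and a single array stands for each. MYB23 is a MYB transcription factor of trichome formation, SRDX is a repression domain, and the 35S promoter is active in most plant tissues. Wild-type plants without the transgene gave the remaining array. The labels do not say whether the numbers 41 and 45 stand for independent transformants, nor how many plants were pooled, so the spread between the lines may be technical in part.

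Complex II oxidises succinate to fumarate in the citrate cycle and passes the electrons to ubiquinone in the inner mitochondrial membrane, which makes it part of the cycle and of the respiratory chain at the same time. SDH1 is the flavoprotein that binds succinate, SDH2 carries the electrons through iron-sulphur clusters, and SDH3 and SDH4 anchor the complex in the membrane. In Arabidopsis several subunits are encoded by more than 1 nuclear gene, and plants have additional subunits whose roles are little known.

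The values are the deposited ones, read as log2 expression because they run from 4.04 to 14.78. The sources used here do not give the log base, the centring or the processing before deposit, and with another base every fold below would change while the order of the arrays would stay. The medians were 5.89 in line 41, 5.91 in line 45 and 5.96 in wild type. The brightest features stood higher in the lines, with a 99th percentile of 10.63 in line 41 and 10.54 in line 45, against 9.62 in wild type. A feature counted as measured if its 3-array mean reached 5.64, called the dim level here, and 17271 did. The leaf markers with a feature, RCA and LHCB4.1 and LHCB4.2, were 3 of 13 listed. They were bright, at 12.33 to 14.13 in line 41 and 11.58 to 13.75 in line 45, against 9.535 to 11.90 in wild type, and by limma all 3 were higher in the lines, with a median log2 change of 2.42. After quantile normalization that median was 0.80, with RCA at 0.53, LHCB4.1 at 0.80 and LHCB4.2 at 1.31. Among further features of these genes, that of LHCB4.2 stood at 2.80 and those of RCA at 0.71 and 0.16. The RCA feature at 0.16 no longer passed (adjusted p = 0.605 by limma). The part of the leaf markers in the results below was not tested. The root hair marker EXPA7 lay at 4.96 in line 41, 5.12 in line 45 and 5.37 in wild type, under the dim level on every array. In leaf RNA of this kind, fewer cells of a type and less RNA per cell cannot be told apart.

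The subunit genes did not move as a block. SDH3-1 and SDH2-1 stood well above wild type in both lines, SDH1-1 and SDH2-2 stayed close to it, SDH2-3 lay a little below it, and SDH1-2 was dim on every array. Of the 5 members that passed the dim filter, 2 were at least 2-fold higher in both lines, where 9.88% of all 17271 features were, and 0 were at least 2-fold lower in both, where 1.42% of all features were. Nothing is read from that count, because these values were known when the family was proposed. The median difference over the 5 was 0.00 in line 41 and 0.31 in line 45, against -0.05 and -0.01 over all features past the filter.

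**Figure D1:**
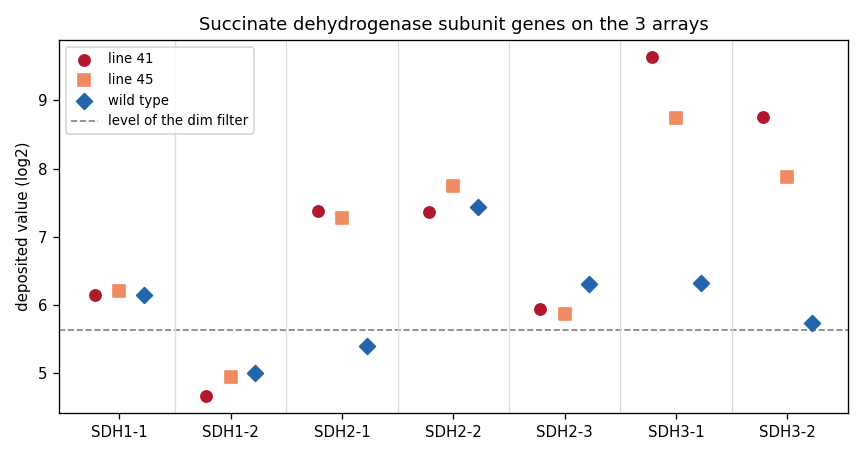
Deposited log2 value (vertical axis) of each subunit gene with a feature, and of SDH3-2, in line 41, line 45 and wild type, 1 point per array and no error bars since each array is a single sample. SDH3-1 reaches 9.63 and 8.74 in the lines against 6.32 in wild type, SDH2-1 crosses the dashed dim level of 5.64 only in the lines, and SDH1-2 lies under it on all 3 arrays.

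Among the flavoprotein genes, SDH1-1 encodes the form that is the main one in Arabidopsis. Its value was 6.15 in line 41 and 6.20 in line 45, against 6.15 in wild type. The 3 arrays thus held nearly the same value, and the mean difference from wild type was 0.02 ± 0.04 on the log2 scale (SD, n = 2 lines against 1 array). For this and the other members, the SD reflects only the gap between the lines, since both differences use the same wild-type array. It holds no error of wild type. Of all measured features, 95.9% differed from wild type by more than SDH1-1 did. SDH1-2, its second copy, is known for low expression. It had 4.67 in line 41 and 4.94 in line 45, against 5.003 in wild type, and the value in line 41 lay under the floor of 4.68. All of these are under the dim level, so no fold is given for it.

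The iron-sulphur subunit is encoded by 3 genes, all with a feature, and these gave 3 different pictures. SDH2-1 had 7.37 in line 41 and 7.28 in line 45, against 5.41 in wild type. Both lines were far above wild type and close to each other. The mean difference was 1.92 ± 0.06 (SD, n = 2), or at least 3.22-fold with the dim wild-type side raised to the dim level. With that correction the lines still lay 1.73 and 1.64 above wild type on the log2 scale. SDH2-1 would not have passed the filter by its wild-type value, so its place among the measured members rests on the lines. Its standing among all features of the same array, which does not depend on the scale, was at percentile 81.8 in line 41 and 80.5 in line 45, against 29.7 in wild type.

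SDH2-2, which like SDH2-1 is known to be expressed in vegetative organs, had 7.37 in line 41 and 7.74 in line 45, against 7.44 in wild type. The wild-type value lay between those of the lines, and the mean difference of 0.12 ± 0.27 (SD, n = 2) was smaller than the spread between the lines. Its rank was at percentile 81.7 in line 41 and 86.6 in line 45, against 84.8 in wild type. SDH2-3 is the copy known from seeds and embryos. It had 5.94 in line 41 and 5.87 in line 45, against 6.31 in wild type, so both lines were lower, by a mean of -0.41 ± 0.05 (SD, n = 2). A difference of that size or more was found in 44.2% of measured features. SDH2-3 ranked at percentile 51.2 in line 41 and 48.6 in line 45, against 60.9 in wild type. No detection calls were used, so how far such mid-range values stand above background is unknown. Whether the 3 genes differ from each other in their response was not tested.

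The membrane anchor gene SDH3-1 showed the greatest difference of the family. It had 9.63 in line 41 and 8.74 in line 45, against 6.32 in wild type. Both lines lay well above wild type, line 41 further than line 45. The differences were 3.31 in line 41 and 2.42 in line 45, with a mean of 2.87 ± 0.63 (SD, n = 2), or 7.29-fold. In the ranking within each array, SDH3-1 reached percentile 97.6 in line 41 and 94.5 in line 45, against 61.1 in wild type. Differences of that size were rare on these arrays, at 0.990% of measured features.

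**Figure D2:**
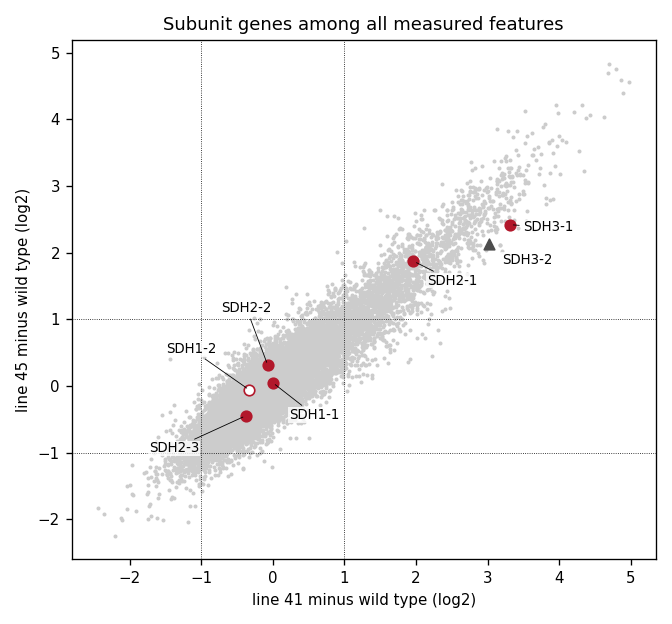
Line 41 minus wild type (horizontal axis, log2) against line 45 minus wild type (vertical axis, log2) for the 17271 features past the dim filter (grey), the subunit genes (red, open for SDH1-2, which did not pass) and SDH3-2 (triangle), with dotted lines at 2-fold. Both axes use the same wild-type array; SDH2-1 and SDH3-1 lie beyond 2-fold on both, and SDH3-1 and SDH3-2 sit toward the line 41 side.

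The lines themselves differed little in most subunit genes, and with 1 array each the difference has no test. SDH3-1 was the exception, at 0.89 higher in line 41 than in line 45 on the log2 scale, a gap that only 0.840% of measured features reached. SDH2-2 leaned the other way, at -0.38 for line 41 minus line 45, which 19.1% of features reached. SDH1-1 (-0.06), SDH2-1 (0.09) and SDH2-3 (0.07) differed by less than the median gap of 0.18 over all measured features.

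SDH3-2 (AT4G32210), the other gene of the same anchor subunit, carries such a symbol but is not among the 10 genes; nor are SDH8 (AT2G46390) and the second SDH7 gene (AT5G62575), which had no paired feature. SDH3-2 had 8.76 in line 41 and 7.88 in line 45, against 5.745 in wild type, just above the dim level of 5.64. It rose 5.95-fold in the lines against that 1 nearly dim value (log2 change 2.57 ± 0.35 SE, adjusted p = 0.00211 by limma, 2 lines against 1 array). Like SDH3-1 it was higher in line 41 than in line 45, by 0.88. Close copies can share signal on an array, and how much of each value comes from the other gene was not tested. The family was proposed with differences of this kind in view, so the p-value of SDH3-2 is no independent support for a change in the family.

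Beyond the subunits, 51 further genes around complex II were listed, chosen with earlier results of these data known: the remaining subunits, assembly factors, pyruvate dehydrogenase, citrate cycle enzymes, malic enzyme, succinate supply, carriers and alternative oxidase. Of these, 20 had a feature and 17 passed the dim filter. By limma, 4 of the 17 rose and 1 fell, while over all features 14.8% were called higher and 7.10% lower at an adjusted p under 0.05. Since earlier results were known when the list was chosen, the p-values of its genes are no independent support for a change in the pathway. AT5G08300, 1 of the 4 that rose, passed the filter only through the lines, since its wild-type value was under the dim level, so its call and the count that holds it carry that limit. With the filter at the 60th percentile (6.27), which removes AT5G08300, 3 of 14 were called higher and 1 lower. SDH3-2, 1 of these 3, passed that filter only through the lines, at 5.745 in wild type, so this count carries the same limit. Of the 17 genes, the other 12 did not pass, with log2 changes between -0.76 and 0.47. The median over the 17, by the brightest feature of each gene, was 0.20, against -0.03 over all measured features. These medians are not like for like, since the second takes every feature and the 17 include SDH3-2 and AT5G08300.

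SDH3-2, described above with the limit on its p-value, was the first of the 4 that rose. The dicarboxylate-tricarboxylate carrier gene AT5G19760, which exchanges organic acids across the inner mitochondrial membrane, had 9.45 in line 41 and 9.16 in line 45, against 7.67 in wild type. It rose 3.12-fold (log2 change 1.64 ± 0.24 SE, adjusted p = 0.00306 by limma). MAB1 (AT5G50850), the E1 beta subunit of pyruvate dehydrogenase, had 7.66 in line 41 and 8.21 in line 45, against 6.39 in wild type. Its rise was 2.92-fold (1.54 ± 0.28, adjusted p = 0.00691 by limma), and of the lines it was line 45 that stood higher.

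AT5G08300 encodes an alpha subunit of succinyl-CoA ligase, the enzyme that releases the succinate complex II oxidises. It had 6.67 in line 41 and 6.47 in line 45, against 5.17 in wild type. Limma called it higher, by at least 1.91-fold with the dim wild-type side raised to the dim level (log2 change 1.41 ± 0.21 SE as measured, adjusted p = 0.00294). As for SDH2-1, the lines alone brought it past the filter, which selects for such a difference. The other genes of that enzyme did not pass: AT5G23250, the second alpha gene, stood at -0.24 and AT2G20420, the beta gene, at 0.20.

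The gene that fell was ICL (AT3G21720), the isocitrate lyase of the glyoxylate cycle, which makes succinate in germinating seedlings. It had 6.78 in line 41 and 7.002 in line 45, against 7.66 in wild type, and fell 1.71-fold (log2 change -0.77 ± 0.23 SE, adjusted p = 0.0458 by limma), close to the threshold, with an adjusted p of 0.0102 to 0.0529 over the alternatives in which it was tested, leaving aside the fit with the floor but no dim filter.

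Neither measured assembly factor of complex II passed. AT2G39725, the relative of the factor SDHAF1 that in yeast and human inserts iron-sulphur clusters into SDH2, had 7.72 in line 41 and 7.54 in line 45, against 7.55 in wild type (log2 change 0.08, adjusted p = 0.851 by limma). AT5G67490, the relative of SDHAF4, had 8.11 in line 41 and 8.06 in line 45, against 7.61 in wild type (0.47, adjusted p = 0.176 by limma). Among citrate cycle enzymes 1 of 9 measured genes rose and 0 fell. The NAD-dependent isocitrate dehydrogenase gene IDH-IV (AT1G32480) had 6.22 in line 41 and 6.80 in line 45, against 7.27 in wild type, and did not pass (-0.76, adjusted p = 0.0922 by limma). The 3 measured genes of the 2-oxoglutarate dehydrogenase complex lay at 0.29 to 0.34 by their brightest features, and none passed. No malic enzyme or alternative oxidase gene had a paired feature.

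**Figure D3:**
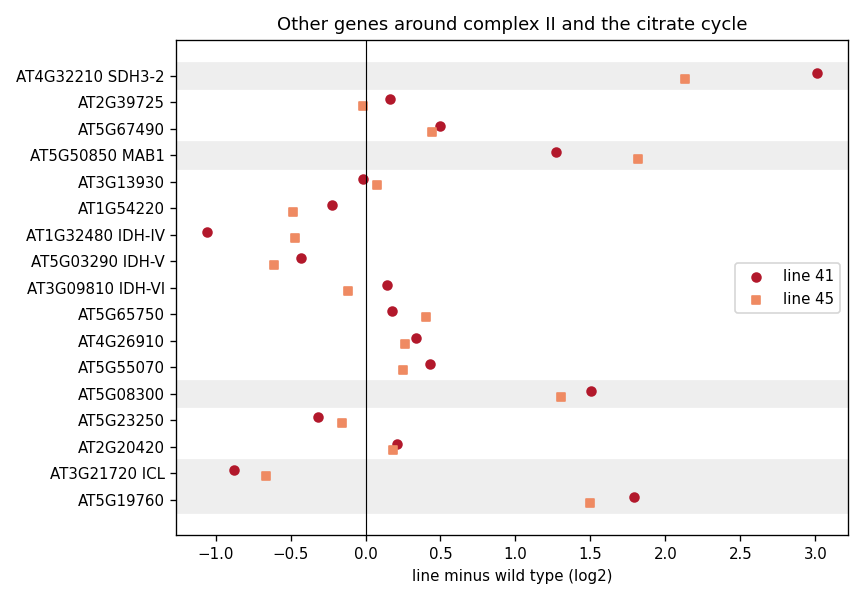
Difference from wild type on the log2 scale (horizontal axis) in line 41 (circles) and line 45 (squares) for the 17 measured genes around complex II and the citrate cycle, 1 gene per row, with genes called by limma on a grey band. The 4 called higher lie between 1.27 and 3.01, ICL lies below 0 in both lines, and the other 12 lie closer to 0 apart from IDH-IV in line 41 at -1.06.

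The named genes most like SDH3-1 in their pair of differences from wild type, by Euclidean distance over the 2 lines, were AT3G47295 at a distance of 0.04, AT1G51200 at 0.20, AT1G51400 at 0.20, AT5G35160 at 0.22 and SAMDC (AT3G02470), an S-adenosylmethionine decarboxylase of polyamine synthesis, at 0.22. AT3G47295 had 9.13 in line 41 and 8.20 in line 45, against 5.82 in wild type. SAMDC had 10.08 in line 41 and 9.28 in line 45, against 6.96 in wild type. These likenesses rest on 2 differences that share 1 wild-type array.

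The protein-coding genes next to SDH2-1 on its chromosome were looked at after the values were seen. AT3G27360 on one side differed from wild type by 0.69 in line 41 and 0.58 in line 45, and AT3G27390 on the other by -0.44 and -0.12, against 1.96 and 1.87 for SDH2-1. ASY2 (AT4G32200), next to SDH3-2, differed from wild type by -0.11 in line 41 and by -0.04 in line 45. The neighbours of SDH3-1 had no paired feature.

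The differences of SDH2-1 and SDH3-1 were kept under other scalings of the arrays. After quantile normalization SDH3-1 exceeded wild type by 3.08 in line 41 and by 2.34 in line 45, and SDH2-1 did so by 1.98 and 1.90. SDH1-1 changed sign with the scaling, at -0.04 when the arrays were centred on the 75th percentile and 0.08 when centred on the median, and the mean of SDH2-2 was -0.04 after quantile normalization. SDH2-3 stayed below wild type in both lines under all 4 scalings, at means of -0.35 to -0.48.

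**Figure D4:**
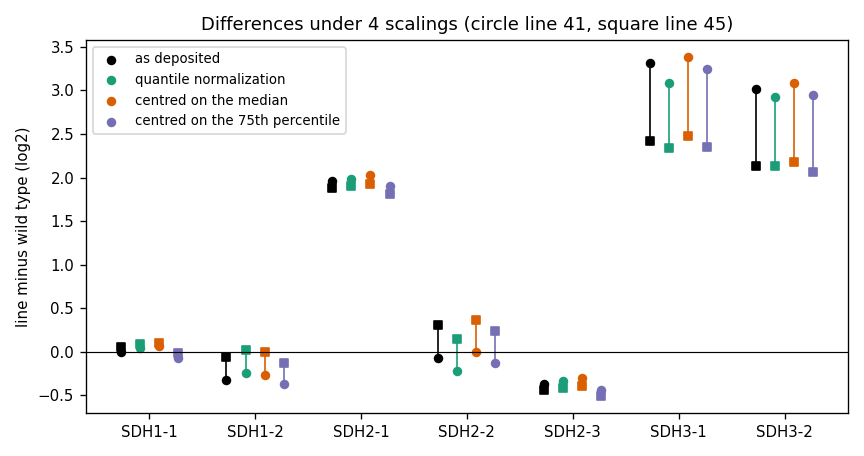
Difference from wild type on the log2 scale (vertical axis) of each subunit gene in line 41 (circle) and line 45 (square), joined by a bar, for values as deposited and under 3 other scalings (colours). SDH2-1, SDH3-1 and SDH3-2 lie above 1.8 in each case, while SDH1-1 and SDH2-2 lie around 0.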

How the data were processed

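The authors deposited 1 value per feature and sample, read here as log2 expression; no source used here gives their array platform, background correction or normalization. The members and gene lists were chosen with earlier results of these data known. Samples were grouped by title. Features were named through a table that paired 17579 of them with 1 gene, 0 with several and left 11206 unnamed here, and through RefSeq symbols of assembly TAIR10.1, which served for names and neighbours only.

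Values were kept as deposited, since the medians differed by less than 0.1, raised to a floor at the 5th percentile (4.68) and filtered at the 40th percentile of feature means (5.64). Lines against wild type were fitted with limma 3.58.1 under R 4.3.3 (lmFit, trended eBayes, Benjamini-Hochberg over 17271 features, adjusted p under 0.05, two-sided), with 1 residual degree of freedom, from the lines; wild type, with 1 array, was assumed to vary like them. The number of arrays limits the precision. The fit was tested on simulated data. For genes with several features, the brightest stood for the gene. The naming rule took all members, the list genes that limma called, and the 5 nearest genes in pattern; the measured markers are named too, and other list genes and chromosomal neighbours named were chosen after their values were seen. Alternatives were other scalings, filters and floors, eBayes without trend, 1 feature per gene, and each line left out. A motif search and protein alignments were planned, but promoter and protein sequences were not used here.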

Additional observations from a re-analysis of the deposited data

How the results depend on the processing

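The subunit genes past 2-fold higher in both lines numbered 2 under each scaling, filter and floor tried, and none was 2-fold lower. Both floors, 4.68 and 5.10, lay under every value of SDH2-1 and SDH3-1, so they could not change these differences. With line 41 or line 45 left out the number was also 2. That only drops 1 of the 2 conditions, so the count could not fall and nothing is read from it. The median difference over measured members, 0.12, became 1.92 with the dim filter at the 60th percentile, which left 3 members. That median was the value of SDH2-1 itself, which, as at the main filter, passed only through the lines. Of the 17 measured pathway genes, 4 were called higher and 1 lower by limma. Without the dim filter but with the floor, limma called 0 higher and 0 lower of 20, with 5 and 2 at an unadjusted p under 0.05 and 0 calls over all features. The filter at the 60th percentile gave 3 higher and 1 lower of 14, and SDH3-2, 1 of the 3, passed it only through the lines. Quantile normalization gave 2 lower, ICL and IDH-IV. With neither filter nor floor, an alternative added after seeing the data, 0 were lower, with 3 at an unadjusted p under 0.05, and 4 higher. The cause was not tested. Under quantile normalization 50.2% of all calls were higher, against 67.6% as deposited; centring on the median gave 70.2% and on the 75th percentile 58.8%. Leaving out a line leaves no residual degrees of freedom, so the pathway calls were not rerun that way. No paired analysis was possible because wild type has 1 array and shares no number with the lines. No detection calls were used, so depth over background is unknown for every feature. That includes dim genes such as SDH1-2, and SDH2-1 and SDH3-2 in wild type. It also includes mid-range values such as those of SDH1-1 and SDH2-3.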
